A study of Mus musculus with 15 samples.

Results

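Genomic imprinting leaves certain genes active from only the maternal or only the paternal copy. The genes described here are 40 mouse imprinted genes, chosen by name from known imprinted regions, out of 48709 genes in the count tables. The choice was not made from their values, but earlier results of these data were known when it was made. Of these, 38 had 10 or more counts in at least 1 of the 15 libraries. The other two were *Rasgrf1*, with at most 6 counts in any library, and *Kcnk9*, with at most 1.

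RNA was sequenced from mouse ESCs of 2 lines in which OCT4, the transcription factor encoded by *Pou5f1*, could be removed. CreER ESCs (labelled Oct4Fl/-; CAG CreER, mixed 129SV and C57BL/6 strain) carry 1 floxed and 1 disrupted *Pou5f1* allele, and 500 nM 4OHT activates the constitutively expressed Cre recombinase, which deletes the floxed allele; there were 2 replicates each at 0, 12, 18, 24 and 36 h. O4AID ESCs (labelled Oct4-/-; TetOFF Oct4; CAG Oct4AID; CAG Tir1, strain 129SV) derive from the line ZHBTc4, are kept in doxycycline to silence its TetOFF Oct4 and live on a transgenic OCT4 fused to an auxin-inducible degron, which 500 µM IAA (auxin) destroys at the protein level; there was 1 library each at 0, 1.5, 6, 10 and 24 h. The labels name a single serum-free medium with kinase inhibitors and LIF, on gelatin without feeders, for both lines. For its measurements of OCT4 loss in floxed Oct4 ESCs the study describes a switch to serum medium together with the inducer, and whether the CreER libraries had that switch is not given in the sources used here, so in CreER a change of medium cannot be told apart from the treatment. Nothing in the labels says that the CreER replicates came from separate cultures, so their p-values measure only the spread between these libraries, which may be technical. Outside these libraries, the study gave IAA to ESCs with eGFP fused to the degron. By qRT-PCR it found that IAA caused neither the fall of pluripotency genes nor the rise of trophectoderm markers. Imprinted genes were not among the qRT-PCR targets it lists. No library came from cells given 4OHT or IAA without loss of OCT4, so in these data the agent and the loss of OCT4 cannot be told apart. Likewise the lines differ in strain, in the source of OCT4 and in doxycycline, which cannot be told apart in any comparison between them.

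At imprinted regions, DNA methylation placed in the egg or the sperm marks an imprinting control region, and that mark decides which parental copy of the neighbouring genes is transcribed. After fertilisation the mark is held by KRAB zinc finger proteins such as ZFP57 with the cofactor TRIM28. Paternally expressed genes often promote growth of the embryo and placenta and maternally expressed genes often restrain it, and many of these genes are imprinted only in some tissues, such as placenta or brain. Cultured ESCs are known to vary in methylation and in imprinted expression. The libraries count RNA from both alleles together, so a level given here says nothing of which parental copy was read, and in bulk RNA fewer expressing cells and less RNA per cell cannot be told apart.

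The sequences that carry the regions described are few. *H19*, the member with the largest tested change, is a non-coding RNA that contains a microRNA, and its 2 mature products are given first, from RefSeq on build GRCm38.p6, with the seed (bases 2 to 8) in capitals. They lie inside *H19* on the minus strand, at chr7:142577112-142577133 for the 5p arm and chr7:142577078-142577099 for the 3p arm. Next is the window between the start sites of *Peg3* and *Usp29*, which are read in opposite directions from it (chr7:6730432-6730577, plus strand), and then the 250 bases before a start of *Mest* (chr6:30737800-30738049, plus strand) and of *Meg3* (chr12:109540746-109540995, plus strand), all 3 free of annotated exons. Capitals in the windows mark TGCCGC or its reverse complement GCGGCA, the hexamer that ZFP57 recognises when methylated.
mmu-miR-675-5p: uGGUGCGGaaagggcccacagu
mmu-miR-675-3p: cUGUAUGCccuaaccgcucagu
Peg3-Usp29 window: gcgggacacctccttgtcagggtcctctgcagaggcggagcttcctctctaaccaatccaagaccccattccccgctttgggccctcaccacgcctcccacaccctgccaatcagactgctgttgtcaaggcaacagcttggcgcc
Mest window: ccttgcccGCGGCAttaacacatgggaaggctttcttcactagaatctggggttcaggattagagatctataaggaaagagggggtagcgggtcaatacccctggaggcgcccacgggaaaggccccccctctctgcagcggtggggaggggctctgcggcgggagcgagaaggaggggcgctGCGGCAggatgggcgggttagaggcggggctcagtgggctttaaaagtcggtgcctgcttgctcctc
Meg3 window: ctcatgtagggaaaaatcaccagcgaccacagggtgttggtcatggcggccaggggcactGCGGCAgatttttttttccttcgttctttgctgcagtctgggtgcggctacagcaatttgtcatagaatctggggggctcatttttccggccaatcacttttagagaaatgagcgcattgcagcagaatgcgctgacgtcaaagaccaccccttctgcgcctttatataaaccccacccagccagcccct

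The hexamer occurred 2 times in the *Mest* window, 1 time in the *Meg3* window and 0 times between *Peg3* and *Usp29*. For *Mest* and *Meg3* the window with the most hexamers among those of the gene was printed, so these counts follow from that choice. The *Mest* window lies inside the annotated span of the gene, before a later start. RefSeq promoter windows were at hand for 32 of the 40 genes. *Peg10*, *Sgce*, *H19* and *Cdkn1c* were among those without a window, so the counts that follow say nothing of them. On either strand, 8.68% of all 32851 windows of 250 bases held the hexamer, against 8 of 50 windows of the imprinted genes. Those 8 belonged to *Copg2*, *Mcts2*, *Meg3*, *Mest*, *Plagl1*, *Zdbf2* and *Zim1*. The octamer ATGCAAAT (ATTTGCAT on the other strand), the letters that OCT4 is known to recognise, was in 1.60% of all windows and in 0 of the 50. These matches describe letters in short windows and not binding sites.

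The libraries held 21655083 to 30774618 counts in CreER and 40537353 to 48719670 in O4AID. Levels are read counts scaled to library size (CPM) with TMM factors over all 15 libraries. *Pou5f1* fell in CreER from 321 and 317 CPM at 0 h to 112 and 123 at 36 h (log2 fold change -1.43, adjusted p 4.15e-19), whereas in O4AID, where the protein is the target, its RNA was at 766 CPM at 0 h and 633 at 24 h, which checks nothing about the protein. All 6 ESC markers had 10 or more counts in every library. At 36 h in CreER 2 of them were called higher (*Nanog* and *Tfcp2l1*) and 3 lower (*Zfp42*, *Klf4* and *Sox2*). Their summed level was between 1649 and 1782 CPM over the CreER libraries and went from 4820.0 CPM at 0 h to 1235 at 24 h in O4AID. The summed level of 10 trophectoderm markers went from 333 and 346 CPM at 0 h to 678 and 708 at 36 h in CreER, and from 119 to 179.8 in O4AID. Within the O4AID sum *Tfap2c* went from 92.2 CPM at 0 h to 81.4 at 24 h, and the sum of the other 9 markers went from 27.1 to 98.4 CPM. Only 3 of the 10 had a log2 ratio of CPM + 1 of at least 1 at 24 h, all keratins. These were *Krt7* (0.478 to 8.12 CPM), *Krt8* (9.57 to 38.1) and *Krt18* (6.01 to 34.8). *Eomes* was at 8.22 CPM at 0 h and 8.54 at 24 h. In CreER all 10 were called higher at 36 h, beside 19.4% of all genes. The 6 primitive endoderm markers went from 13.1 and 14.8 to 35.6 and 36.6 CPM in CreER and from 10.7 to 45.6 in O4AID. Several imprinted genes, among them *H19*, *Igf2*, *Ascl2* and *Peg10*, are known to be high in placenta or endoderm, and the part of such cells in the changes below was not tested. The 6 fibroblast markers summed to under 10 CPM in every library.

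Before treatment many of these genes differed in level between the 2 lines. Of the 38 genes, 19 were at least 2-fold lower in O4AID and 5 at least 2-fold higher, where a difference is the log2 ratio of CPM + 1 between the O4AID library and the mean of the CreER replicates. Over all 20339 genes compared, 14.0% were that much lower and 15.4% that much higher. The shares over all genes, here and below, were not matched for level, and genes of low level reach the limit less easily on this scale. The median difference was -0.84 over the imprinted genes and 0.03 over all genes. With 1 O4AID library this has no test. For 20 of the 38 genes all 5 O4AID libraries, treated or not, lay below all 10 CreER libraries, and for 6 they lay above, against 30.1% and 32.0% of all 20339 genes. With a pseudocount of 5 CPM in place of 1, 7 of the 24 differences past 2-fold fell short of it, those of *Ascl2* (-0.48), *Cdkn1c* (-0.96), *Copg2*, *Dlk1* (-0.63), *Kcnq1ot1* (-0.99), *Magel2* (-0.36) and *Nespas* (-0.76). Of the 22 paternally expressed genes 12 were lower and 1 higher, and of the 16 maternally expressed genes 7 were lower and 4 higher.

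Compared per kilobase of all annotated exon bases of a gene, *Peg10* led in untreated CreER ESCs at 278 ± 6.67 CPM per kb (SD, n = 2). That length can exceed the transcript made, so the order between genes is approximate. *Snrpn* (79.4 ± 9.66), *Impact* (76.7 ± 0.572), *H19* (76.1 ± 5.88) and *Mest* (74.2 ± 4.33) followed and did not differ beyond their spread. In untreated O4AID ESCs the order began with *Impact* at 70.7, *Cd81* at 67.4, *Igf2r* at 41.8 and *Jade1* at 39.8 CPM per kb. There *Peg10* was at 8.25 and *H19* at 1.02. The plot of levels in the untreated lines shows every gene in this order of difference.

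**Figure D1:**
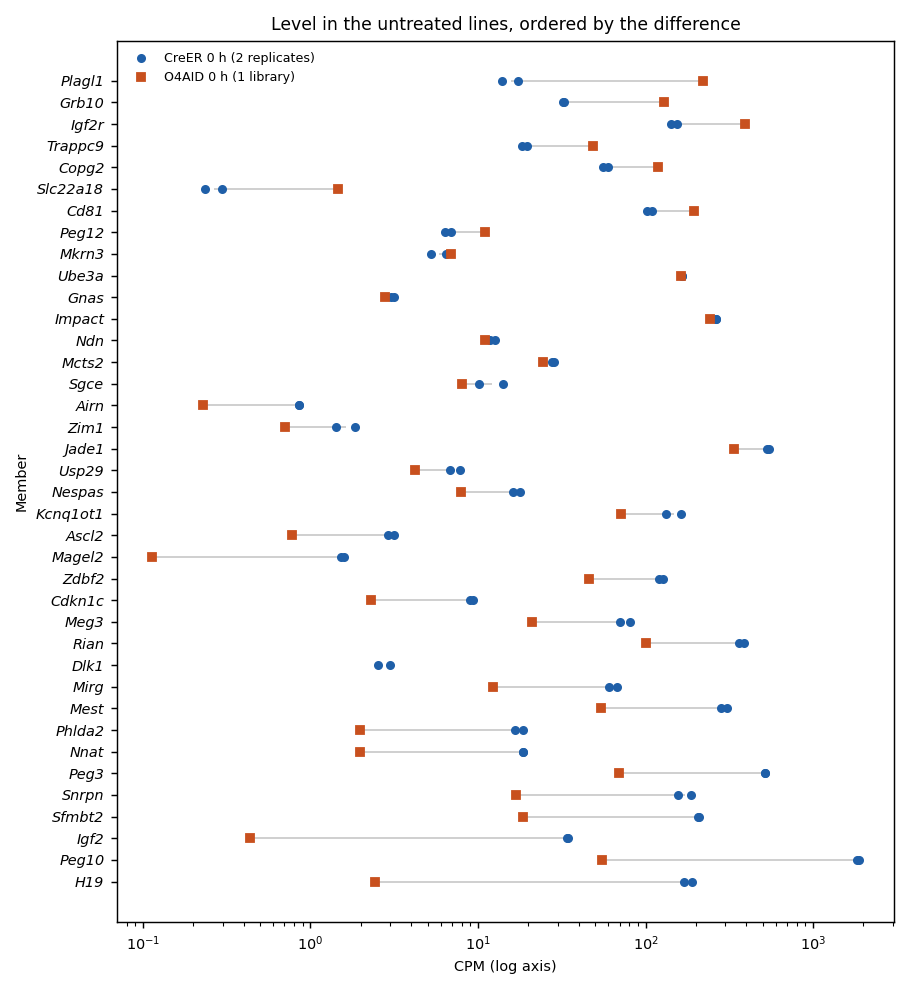
CPM on a log axis for 38 imprinted genes in untreated cells, with both CreER replicates as circles and the 1 O4AID library as a square, ordered by the log2 difference. *Plagl1* is at the top at 3.74 and *H19* at the bottom at -5.73, and *Dlk1* has no square because it had 0 counts in O4AID.

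After 4OHT imprinted genes rose and fell. With edgeR's quasi-likelihood test over 18969 genes at an adjusted p under 0.05, 0 of the 38 genes passed at 12 h, where 0.258% of all genes were called higher and 0.137% lower. At 12 h 8 genes had an unadjusted p under 0.05, and DESeq2 called 1, *Snrpn*, which was also called under total counts and with no filter on low counts. At 18 h 10 rose and 2 fell (background 4.73% higher and 3.79% lower), and at 24 h 10 rose and 4 fell (background 11.0% and 10.6%). By 36 h 16 rose and 11 fell, against 19.4% of all genes called higher and 17.2% lower.

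At 36 h 10 of 22 paternally expressed genes rose and 6 fell, and 6 of 16 maternally expressed genes rose and 5 fell. Most changes were small. Only *H19*, *Igf2*, *Sgce* and *Ascl2* rose at least 2-fold, and the median log2 fold change at 36 h was 0.13 over the imprinted genes and 0.01 over all genes. Leaving out 1 library or another analysis setting ended 7 of the 12 calls at 18 h, 5 of 14 at 24 h and 7 of 27 at 36 h, and the genes concerned are named below.

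In O4AID 36 of the 40 genes had 10 or more counts in at least 1 library. The limit of 2-fold was set on the log2 ratio of CPM + 1, which lies below the plain ratio for genes of low level. None was past it after 1.5 h of IAA, when 0.0206% of 19406 genes were 2-fold higher and 0.0567% lower, although *Airn* went from 10 to 31 counts, a plain CPM ratio of 3.23-fold (95% counting interval 1.54 to 7.39). At 6 h 2 genes, *Peg10* and *Usp29*, were 2-fold higher and 0 lower (background 0.366% and 0.510%), and at 10 h 3, with *Sgce*, were higher and 0 lower (background 0.969% and 0.943%). By 24 h 8 were higher (*Peg10*, *H19*, *Igf2*, *Sgce*, *Sfmbt2*, *Phlda2*, *Airn* and *Slc22a18*) and 1 lower (*Grb10*), against 3.51% and 2.73% of all genes. The median change at 24 h was 0.16 over the imprinted genes and -0.02 over all genes. With 1 library per time these changes have no replicate check, and the intervals given for them cover counting error only.

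**Figure D2:**
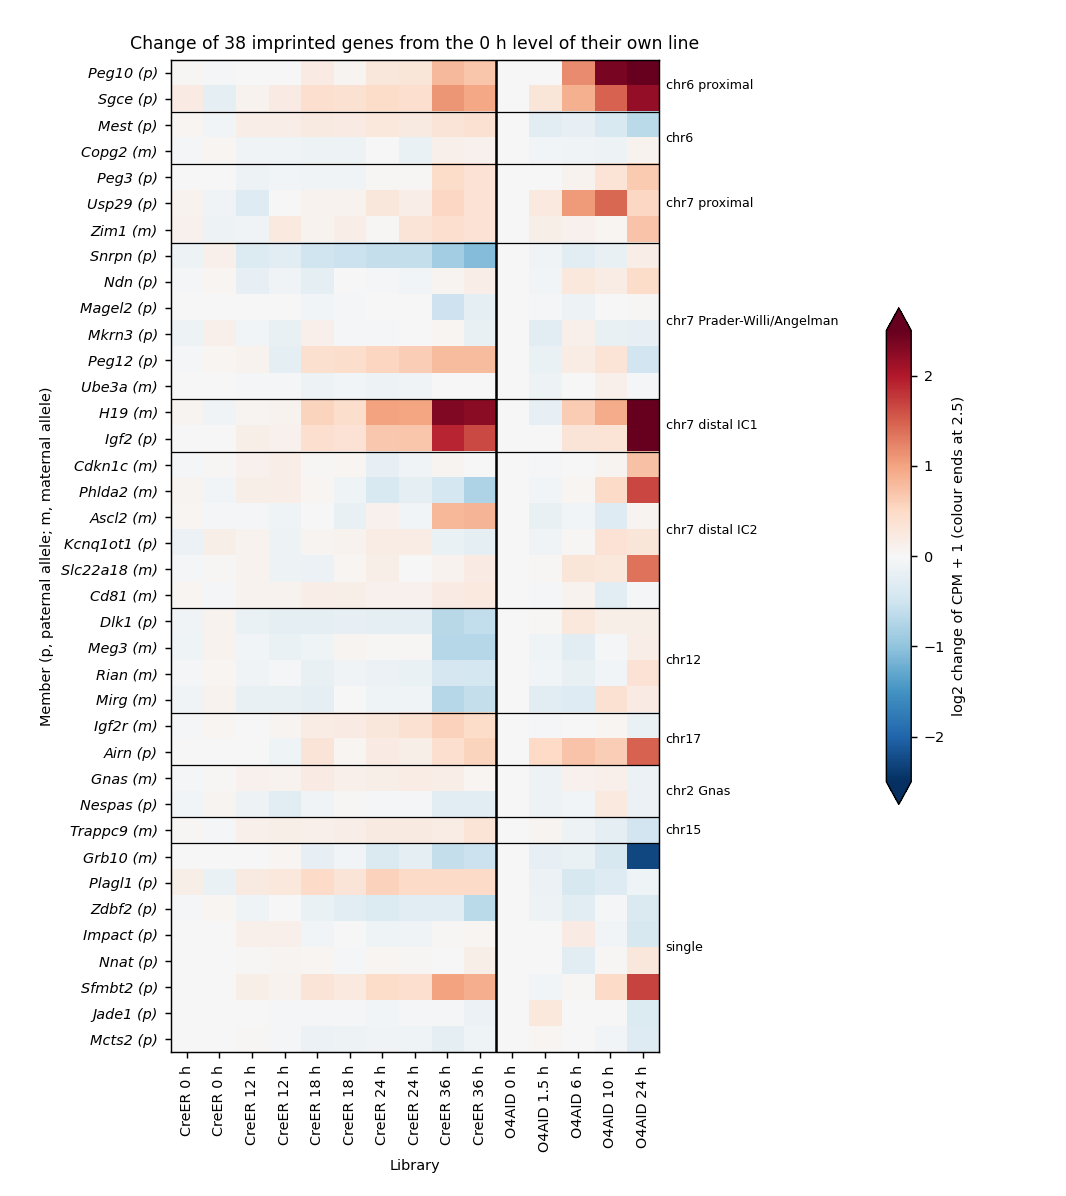
Change of each of 38 imprinted genes (rows, grouped by cluster, with genes of no cluster last) in each of the 15 libraries (columns) as the log2 ratio of CPM + 1 to the mean 0 h level of the same line, red for higher and blue for lower, with p and m for the paternally and maternally expressed genes. The deepest red is in the O4AID 24 h library at *Peg10*, *H19* and *Igf2*, which reached 4.81, 4.64 and 3.27, beyond the end of the colour scale at 2.5, and the deepest blue is *Grb10* at -2.27.

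*Peg10* and *Sgce* stand back to back on proximal chromosome 6 and are both paternally expressed. *Peg10* (ENSMUSG00000092035, chr6:4747306-4760517, plus strand) is a domesticated retrotransposon gene required for the placenta, and *Sgce* (ENSMUSG00000004631, chr6:4674350-4747207, minus strand) encodes epsilon-sarcoglycan, with starts 99 bases apart. In CreER *Peg10* was at 1882 and 1819 CPM at 0 h, 1845 and 1871 at 12 h, 2141 and 1951 at 18 h, 2256 and 2293 at 24 h, and 3258 and 3004 at 36 h. Both replicates at 18, 24 and 36 h lay above both at 0 h. The log2 fold change was 0.15 ± 0.04 (SE) at 18 h (adjusted p 0.0248), 0.30 ± 0.04 (SE) at 24 h (adjusted p 5.78e-06) and 0.77 ± 0.04 (SE) at 36 h (adjusted p 6.58e-14). The 18 h call was lost without replicate 1 of 18 h (0.08, adjusted p 0.479), without replicate 2 of 0 h, with DESeq2 and in 2 other settings.

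In O4AID *Peg10* was at 55.0 CPM untreated, 54.5 after 1.5 h, 125 after 6 h, 287 after 10 h and 1567 after 24 h. It began 33.6-fold below CreER and climbed at each time after 1.5 h, by 2.28-fold (95% counting interval 2.17 to 2.39) at 6 h, 5.22-fold (95% counting interval 5.00 to 5.46) at 10 h and 28.5-fold (95% counting interval 27.3 to 29.7) at 24 h, when it came near the untreated CreER level. On the scale of CPM + 1 the log2 change was 1.17 (95% counting interval 1.10 to 1.24), 2.36 (95% counting interval 2.30 to 2.43) and 4.81 (95% counting interval 4.75 to 4.86).

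*Sgce* also rose in both lines. Its CreER libraries were at 14.2 and 10.2 CPM at 0 h, 13 and 14.1 at 12 h, 16.6 and 16.2 at 18 h, 17.1 and 16.6 at 24 h, and 27.4 and 24.9 at 36 h, so the 0 h replicates spread widely and every replicate from 18 h on was above both. The log2 fold change was 0.45 ± 0.11 (SE) at 18 h (adjusted p 0.0106), 0.49 ± 0.11 (SE) at 24 h (adjusted p 0.00194) and 1.13 ± 0.10 (SE) at 36 h (adjusted p 1.08e-08). Without replicate 2 of 0 h, the lower one, the 18 h and 24 h calls were lost (0.21, adjusted p 0.268, and 0.26, adjusted p 0.0801), the 18 h call was also lost without either 18 h replicate and in a fit of the 4 libraries compared, and the 36 h value was 0.90, adjusted p 2.44e-08. In O4AID *Sgce* was at 8.04 CPM untreated, 10.1 after 1.5 h, 15.7 after 6 h, 24.2 after 10 h and 40.6 after 24 h, a change of 1.48 (95% counting interval 1.32 to 1.64) at 10 h and 2.20 (95% counting interval 2.05 to 2.35) at 24 h. The untreated lines differed by -0.54 (O4AID minus CreER).

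*H19* and *Igf2* share 1 control region on distal chromosome 7. *H19* (ENSMUSG00000000031, chr7:142575529-142578143, minus strand) is a maternally expressed growth-restraining RNA and the host of the microRNA printed above, and *Igf2* (ENSMUSG00000048583, chr7:142650766-142666816, minus strand) encodes a paternally expressed growth factor. *H19* was at 190.4 and 171 CPM at 0 h, 189 and 191 at 12 h, 266 and 244 at 18 h, 363 and 358 at 24 h, and 897 and 867 at 36 h in CreER. From 18 h on, both replicates exceeded both untreated ones at each time. It rose by 0.50 ± 0.05 (SE) on the log2 scale at 18 h (adjusted p 1.22e-07), by 1.01 ± 0.05 (SE) at 24 h (adjusted p 6.13e-14) and by 2.30 ± 0.05 (SE) at 36 h (adjusted p 1.13e-21), the largest of the 38 genes at 36 h.

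*Igf2* rose with it, at 34.7 and 34.0 CPM at 0 h, 38.3 and 37.1 at 12 h, 46.2 and 44.1 at 18 h, 55.7 and 55.9 at 24 h, and 132 and 110.0 at 36 h, and its replicates at every time after 0 h were above both at 0 h. The log2 fold change was 0.40 ± 0.07 (SE) at 18 h (adjusted p 2.69e-04), 0.71 ± 0.07 (SE) at 24 h (adjusted p 1.02e-08) and 1.83 ± 0.06 (SE) at 36 h (adjusted p 1.25e-17). Both genes were nearly silent in untreated O4AID ESCs, *H19* at 74.8-fold and *Igf2* at 79.4-fold below CreER (log2 differences -5.73 and -4.62).

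In O4AID *H19* was at 2.41 CPM untreated, 1.97 after 1.5 h, 4.27 after 6 h, 5.53 after 10 h and 84.0 after 24 h, and *Igf2* at 0.433 CPM untreated, 0.451 after 1.5 h, 0.793 after 6 h, 0.820 after 10 h and 12.8 after 24 h. *H19* was 1.77-fold (95% counting interval 1.38 to 2.28) above the 0 h library at 6 h and 2.29-fold (95% counting interval 1.81 to 2.92) at 10 h, and *Igf2* 1.89-fold (95% counting interval 1.04 to 3.54) at 10 h. The larger part of the rise in both came between 10 and 24 h, when *H19* was 34.8-fold (95% counting interval 28.7 to 42.6) and *Igf2* 29.6-fold (95% counting interval 18.8 to 49.5) above 0 h (log2 changes on the CPM + 1 scale 4.64 (95% counting interval 4.43 to 4.84) and 3.27 (95% counting interval 3.02 to 3.48)). Even so, at 24 h both stayed below their untreated CreER levels.

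**Figure D3:**
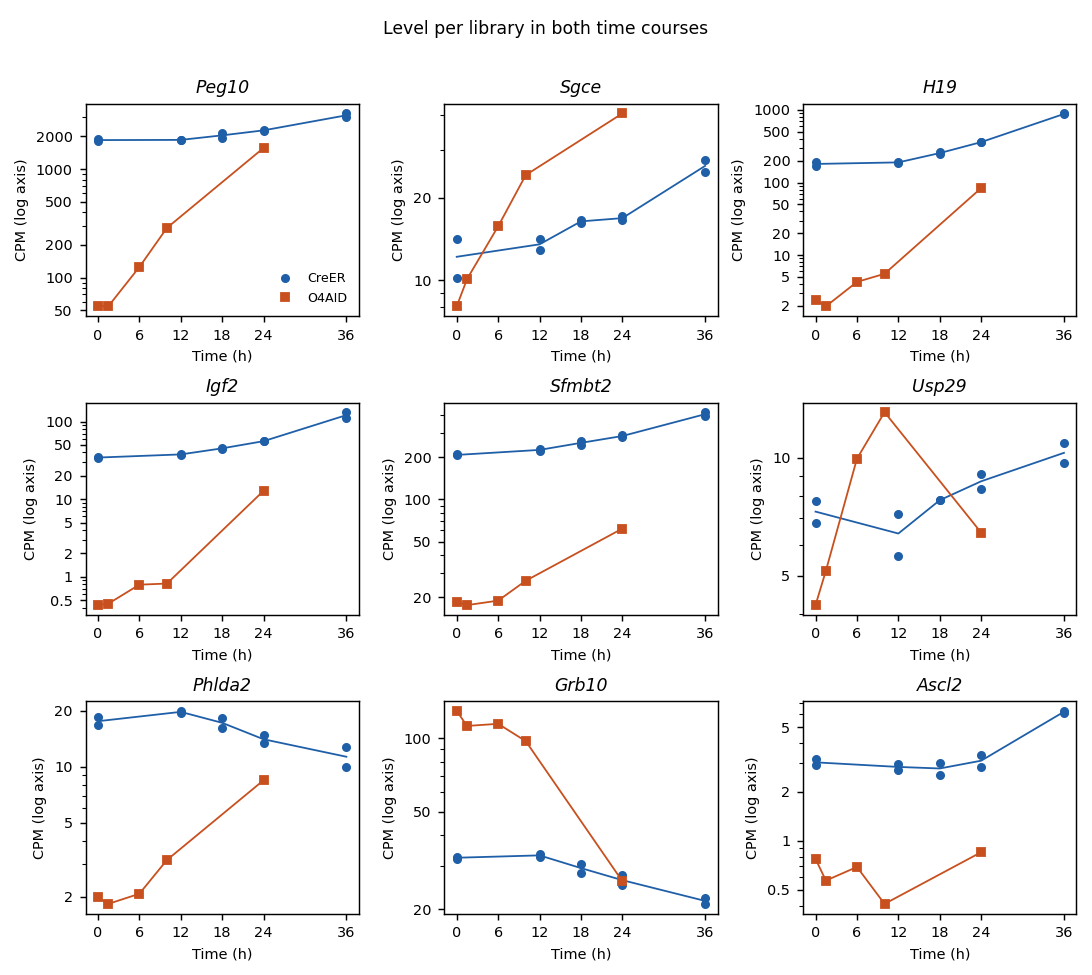
CPM on a log axis against hours of treatment for 9 imprinted genes, with each CreER library as a circle and each O4AID library as a square, and lines through the means. *Peg10* rises in O4AID from 55.0 to 1567 CPM, *H19* and *Igf2* climb there most between 10 and 24 h, *Usp29* peaks at 13 CPM at 10 h, and *Phlda2* falls in CreER and rises in O4AID.

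The neighbouring IC2 region of distal chromosome 7 holds maternally expressed genes that the paternal non-coding RNA *Kcnq1ot1* silences on the other copy. At 36 h in CreER *Ascl2* and *Cd81* rose, *Phlda2* fell and *Cdkn1c*, *Kcnq1ot1* and *Slc22a18* did not pass. *Ascl2* (ENSMUSG00000009248, chr7:142966829-142969264, minus strand), a transcription factor of trophoblast progenitors, was at 3.16 and 2.91 CPM at 0 h, 2.95 and 2.73 at 12 h, 3.02 and 2.54 at 18 h, 3.36 and 2.85 at 24 h, and 6.14 and 6.27 at 36 h. It changed at the last time, by 1.05 ± 0.15 (SE) (adjusted p 1.84e-06), and both replicates were above all earlier ones. In O4AID it stayed low throughout, at 0.774 CPM untreated, 0.570 after 1.5 h, 0.691 after 6 h, 0.410 after 10 h and 0.851 after 24 h, -1.18 from untreated CreER.

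*Phlda2* (ENSMUSG00000010760, chr7:143501545-143503150, minus strand), a restrainer of placental growth, went the other way in CreER, at 18.5 and 16.7 CPM at 0 h, 19.6 and 20.0 at 12 h, 18.2 and 16.3 at 18 h, 13.4 and 14.8 at 24 h, and 12.7 and 9.92 at 36 h. The log2 fold change was -0.32 ± 0.09 (SE) at 24 h (adjusted p 0.0148) and -0.61 ± 0.10 (SE) at 36 h (adjusted p 1.87e-05), and the 24 h call was lost without replicate 1 of 0 h (-0.24, adjusted p 0.120) or without replicate 1 of 24 h (-0.25, adjusted p 0.179). In O4AID *Phlda2* was at 1.98 CPM untreated, 1.83 after 1.5 h, 2.07 after 6 h, 3.15 after 10 h and 8.47 after 24 h, starting 8.89-fold below CreER and ending 4.27-fold (95% counting interval 3.38 to 5.46) above its own 0 h level. The log2 change of 1.67 (95% counting interval 1.42 to 1.91) became 0.95 with a pseudocount of 5 CPM.

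*Slc22a18* (ENSMUSG00000000154, chr7:143473736-143499334, plus strand), a membrane transporter, was near the limit of counting in CreER, at 0.234 and 0.297 CPM at 0 h, 0.349 and 0.161 at 12 h, 0.151 and 0.305 at 18 h, 0.408 and 0.262 at 24 h, and 0.352 and 0.468 at 36 h, and its replicates at 36 h gave 0.60 ± 0.52 (SE) (adjusted p 0.399). The O4AID values were 1.46 CPM untreated, 1.52 after 1.5 h, 2.05 after 6 h, 1.95 after 10 h and 5.33 after 24 h, a rise at 24 h of 1.36 (95% counting interval 1.10 to 1.63), or 0.68 with a pseudocount of 5. Its level was 5.49-fold that of CreER before treatment. All 5 O4AID libraries were above all 10 CreER libraries.

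*Cdkn1c* (ENSMUSG00000037664, chr7:143458339-143461050, minus strand), an inhibitor of the cell cycle, was at 9.02 and 9.34 CPM at 0 h, 9.94 and 10.5 at 12 h, 9.33 and 9.53 at 18 h, 7.82 and 8.59 at 24 h, and 9.74 and 9.22 at 36 h, with 0.06 ± 0.10 (SE) at 36 h (adjusted p 0.694). Its O4AID libraries were at 2.30 CPM untreated, 2.26 after 1.5 h, 2.33 after 6 h, 2.46 after 10 h and 4.48 after 24 h. They all lay below CreER, with a difference before treatment of -1.63 and a change at 24 h of 0.73 (95% counting interval 0.47 to 0.99), and 30.7% of its exon bases lie under an antisense gene model. *Kcnq1ot1* (ENSMUSG00000101609, chr7:143212155-143296549, minus strand) was at 133 and 163 CPM at 0 h, 158 and 135 at 12 h, 156 and 158 at 18 h, 168 and 169 at 24 h, and 131 and 126 at 36 h, -0.19 ± 0.10 (SE) at 36 h (adjusted p 0.201). The O4AID libraries held 71.8 CPM untreated, 67.2 after 1.5 h, 72.9 after 6 h, 92.3 after 10 h and 89.0 after 24 h. The line difference of -1.03 was just past 2-fold and was -0.87 without replicate 2 of CreER 0 h.

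*Cd81*, a tetraspanin at the edge of the region, ranged from 102 to 125 CPM in CreER and from 162 to 206 in O4AID. It rose by 0.24 ± 0.04 (SE) at 36 h (adjusted p 1.25e-04) and by 0.17 ± 0.04 (SE) at 18 h (adjusted p 0.0159). The 18 h call was lost with DESeq2, under total counts, in a fit of the 4 libraries compared and without replicate 2 of 0 h or either replicate of 18 h.

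On distal chromosome 12 all 4 genes passed as lower at 36 h. The region pairs *Dlk1* (ENSMUSG00000040856, chr12:109452823-109463336, plus strand), a paternally expressed inhibitor of Notch signalling, with the maternally expressed non-coding RNAs *Meg3*, *Rian* and *Mirg*, which carry microRNAs and small nucleolar RNAs. *Dlk1* was at 2.54 and 2.97 CPM at 0 h, 2.35 and 2.21 at 12 h, 2.23 and 2.27 at 18 h, 2.23 and 2.17 at 24 h, and 1.33 and 1.45 at 36 h, and both replicates at every later time were below both at 0 h. It fell by 0.99 ± 0.20 (SE) at 36 h (adjusted p 3.20e-04) and gave -0.32 ± 0.17 (SE) at 24 h (adjusted p 0.204). In untreated O4AID ESCs it had 0 counts, which allows up to 0.0683 CPM (3 counts), at least 40.3-fold lower than CreER, and its O4AID libraries were at 0 CPM untreated, 0.0237 after 1.5 h, 0.205 after 6 h, 0.102 after 10 h and 0.109 after 24 h.

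*Meg3* (ENSMUSG00000021268, chr12:109541001-109571726, plus strand), whose start carries the window with 1 hexamer printed above, was at 70.1 and 80.6 CPM at 0 h, 72.0 and 67.2 at 12 h, 69.6 and 78.6 at 18 h, 76.6 and 76.8 at 24 h, and 45.3 and 45.3 at 36 h in CreER. The log2 fold change at 24 h did not pass (0.03 ± 0.06 (SE), adjusted p 0.777), and the level fell by 0.73 ± 0.06 (SE) at 36 h (adjusted p 2.72e-09). *Rian* (ENSMUSG00000097451, chr12:109603940-109661716, plus strand) was at 362 and 386 CPM at 0 h, 349.9 and 366 at 12 h, 329 and 350.2 at 18 h, 338 and 332 at 24 h, and 278 and 275 at 36 h. It fell by 0.42 ± 0.04 (SE) at 36 h (adjusted p 6.58e-09), and its smaller falls at 18 h (-0.13, adjusted p 0.0489) and 24 h (-0.15, adjusted p 0.0110) were lost without replicate 2 of 0 h (-0.09, adjusted p 0.356, and -0.11, adjusted p 0.130), at 18 h also without either 18 h replicate, with DESeq2 and in a fit of the 4 libraries compared, and at 24 h without replicate 2 of 24 h.

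*Mirg* (ENSMUSG00000097391, chr12:109729764-109749460, plus strand) was at 60.1 and 67.8 CPM at 0 h, 55.9 and 55.7 at 12 h, 54.0 and 64.1 at 18 h, 59.6 and 59.7 at 24 h, and 38.4 and 42.0 at 36 h. It dropped by 0.66 ± 0.07 (SE) at 36 h (adjusted p 2.82e-07). These 3 RNAs were also lower in O4AID, by 3.59-fold for *Meg3*, 3.72-fold for *Rian* and 5.24-fold for *Mirg* before treatment, and all 5 O4AID libraries were below all CreER libraries for each. Their O4AID values were 21.0 CPM untreated, 19.5 after 1.5 h, 17.1 after 6 h, 20.3 after 10 h and 23.7 after 24 h for *Meg3*. *Rian* was at 100.4 CPM untreated, 95.8 after 1.5 h, 88.6 after 6 h, 95.1 after 10 h and 129 after 24 h, and *Mirg* at 12.2 CPM untreated, 9.81 after 1.5 h, 9.52 after 6 h, 16.2 after 10 h and 14.2 after 24 h. None came near a 2-fold change, and the log2 changes at 24 h were 0.17, 0.35 and 0.20 in that order, each with a counting interval above 0.

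**Figure D4:**
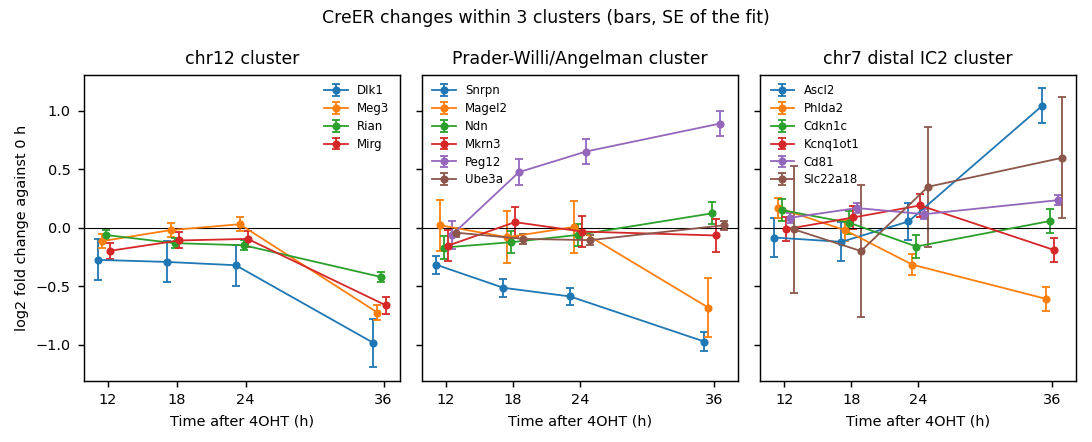
Log2 fold change against 0 h in CreER at 12, 18, 24 and 36 h for the genes of 3 imprinted clusters, with bars for the SE of the edgeR fit and points set slightly apart along the time axis. The 4 chromosome 12 genes all lie between -0.99 and -0.42 at 36 h, *Snrpn* and *Peg12* part in opposite directions, and in the IC2 cluster *Ascl2* is up and *Phlda2* down.

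In the Prader-Willi/Angelman region of chromosome 7 the genes did not move together. *Snrpn* and *Magel2* fell, *Peg12* rose, and *Ndn*, *Mkrn3* and *Ube3a* did not pass at any time. *Snrpn* (ENSMUSG00000102252, chr7:59982495-60140219, minus strand), which encodes a splicing protein, was at 157 and 186 CPM at 0 h, 135 and 141 at 12 h, 121 and 118 at 18 h, 113 and 114 at 24 h, and 93.1 and 80.0 at 36 h. Both replicates at each later time were below both at 0 h, and its log2 fold change was -0.51 ± 0.08 (SE) at 18 h (adjusted p 0.00174), -0.59 ± 0.08 (SE) at 24 h (adjusted p 2.23e-04) and -0.97 ± 0.08 (SE) at 36 h (adjusted p 1.51e-06). At 12 h, where the value was -0.32 ± 0.08 (SE), the adjusted p was 0.145 with edgeR and 0.0108 with DESeq2. O4AID held 10.2-fold less, at 16.9 CPM untreated, 15.9 after 1.5 h, 14.0 after 6 h, 14.6 after 10 h and 19 after 24 h. Of its exon bases 34.1% are shared with other gene models, among them *Snurf*, so its level is uncertain.

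*Magel2* (ENSMUSG00000056972, chr7:62377010-62381640, plus strand), a partner of ubiquitin ligases, was at 1.52 and 1.58 CPM at 0 h, 1.59 and 1.57 at 12 h, 1.43 and 1.49 at 18 h, 1.57 and 1.54 at 24 h, and 0.782 and 1.17 at 36 h. The change of -0.68 ± 0.26 (SE) at 36 h (adjusted p 0.0379) was lost with DESeq2 (-0.68, adjusted p 0.164), without replicate 1 of 36 h (-0.39, adjusted p 0.384), without either 0 h replicate and in 2 other settings. It was almost absent from O4AID, at 0.114 CPM untreated, 0.0712 after 1.5 h, 0.0256 after 6 h, 0.102 after 10 h and 0.131 after 24 h, with at most 6 counts in any of these libraries. *Peg12*, encoding a GSK3-binding protein, ranged from 5.51 to 12.2 CPM in CreER and rose by 0.47 ± 0.11 (SE) at 18 h (adjusted p 0.00690), 0.65 ± 0.11 (SE) at 24 h (adjusted p 6.61e-05) and 0.89 ± 0.11 (SE) at 36 h (adjusted p 2.36e-07), with the 18 h call lost without either 18 h replicate.

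*Peg12* ranged from 7.66 to 14.2 CPM in O4AID. *Ndn*, encoding necdin, lay between 10.3 and 13.8 CPM in CreER and between 10.4 and 15.5 in O4AID. *Mkrn3*, encoding a zinc finger protein, lay between 4.96 and 6.46 and between 5.56 and 7.52 CPM. The ranges of the 2 lines overlapped for both genes. *Ube3a*, a ubiquitin ligase imprinted in neurons, lay between 151 and 168 CPM in CreER and 149 and 177 in O4AID, with 27.3% of its exon bases under antisense models.

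The 3 genes of proximal chromosome 7 rose at 36 h and at no earlier time. *Peg3* (ENSMUSG00000002265, chr7:6703892-6730431, minus strand), a zinc finger protein of the paternal copy, was at 514 and 519 CPM at 0 h, 474 and 491 at 12 h, 487 and 485 at 18 h, 524 and 527 at 24 h, and 706 and 666 at 36 h. It gave 0.03 ± 0.04 (SE) at 24 h (adjusted p 0.618) and 0.42 ± 0.04 (SE) at 36 h (adjusted p 1.01e-09). In O4AID it was 7.45-fold lower before treatment and at 69.4 CPM untreated, 69.0 after 1.5 h, 73.5 after 6 h, 88.2 after 10 h and 109 after 24 h, a change of 0.65 (95% counting interval 0.59 to 0.72) at 24 h.

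*Usp29* (ENSMUSG00000051527, chr7:6730578-6967219, plus strand), a deubiquitinase gene starting 147 bases from *Peg3* across the printed window, was at 7.77 and 6.80 CPM at 0 h, 5.62 and 7.20 at 12 h, 7.78 and 7.80 at 18 h, 9.08 and 8.32 at 24 h, and 10.9 and 9.69 at 36 h. It rose by 0.52 ± 0.12 (SE) at 36 h (adjusted p 9.31e-04). Its O4AID libraries were at 4.21 CPM untreated, 5.15 after 1.5 h, 9.93 after 6 h, 13 after 10 h and 6.44 after 24 h, with changes of 1.07 (95% counting interval 0.85 to 1.28) at 6 h, 1.43 (95% counting interval 1.22 to 1.64) at 10 h and 0.51 (95% counting interval 0.29 to 0.74) at 24 h. Alone among the genes past 2-fold, it peaked and came down again within the course. With a pseudocount of 5 the 6 h and 10 h changes were 0.70 and 0.97, and against the 1.5 h library the 6 h change was 0.83.

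*Zim1*, the maternally expressed zinc finger gene beside them, was at 1.42 to 2.5 CPM in CreER and 0.706 to 1.81 in O4AID. Its rise of 0.61 ± 0.22 (SE) at 36 h (adjusted p 0.0338) was lost with DESeq2, under total counts, without replicate 2 of 0 h (0.42, adjusted p 0.264) and without either 36 h replicate.

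*Mest* and *Copg2* overlap tail to tail on chromosome 6, and 23.1% of the exon bases of *Mest* and 17.8% of those of *Copg2* lie in the other gene, so that without knowledge of strand in the counting their reads there cannot be told apart. *Mest* (ENSMUSG00000051855, chr6:30723547-30748465, plus strand), a hydrolase of the paternal copy with 2 hexamers in the printed window, was at 305 and 280.4 CPM at 0 h, 329.9 and 328 at 12 h, 343 and 339 at 18 h, 352 and 344 at 24 h, and 364 and 383 at 36 h. Every treated replicate was above both at 0 h. It rose by 0.23 ± 0.04 (SE) at 18 h (adjusted p 0.00101), 0.26 ± 0.04 (SE) at 24 h (adjusted p 6.82e-05) and 0.36 ± 0.04 (SE) at 36 h (adjusted p 1.38e-07). O4AID libraries were at 54.1 CPM untreated, 44.5 after 1.5 h, 46.8 after 6 h, 41.4 after 10 h and 33.8 after 24 h, 5.40-fold below CreER before IAA with a change at 24 h of -0.67 (95% counting interval -0.76 to -0.57).

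*Copg2* (ENSMUSG00000025607, chr6:30747554-30896794, minus strand), encoding a coatomer subunit, was at 56.1 and 60.1 CPM at 0 h, 54.5 and 54.5 at 12 h, 53.5 and 53.1 at 18 h, 57.5 and 52.0 at 24 h, and 63.6 and 63.0 at 36 h, with 0.13 ± 0.06 (SE) at 36 h (adjusted p 0.0596). O4AID held it at 119 CPM untreated, 113 after 1.5 h, 112 after 6 h, 108 after 10 h and 125 after 24 h. The difference before treatment was 1.02, at the edge of the threshold and under it with RLE or total-count scaling, with a pseudocount of 5 or without replicate 1 of CreER 0 h (0.81 to 0.97).

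On chromosome 17 *Igf2r* and *Airn* overlap in opposite directions. *Igf2r* (ENSMUSG00000023830, chr17:12682406-12769664, minus strand) encodes the maternally expressed receptor that removes IGF2, and the paternal antisense RNA *Airn* silences it in cis. *Igf2r* was at 142 and 153 CPM at 0 h, 149 and 155 at 12 h, 169 and 169.9 at 18 h, 180.3 and 192 at 24 h, and 222 and 203 at 36 h. It rose by 0.20 ± 0.05 (SE) at 18 h (adjusted p 0.00596), 0.34 ± 0.05 (SE) at 24 h (adjusted p 3.97e-06) and 0.54 ± 0.05 (SE) at 36 h (adjusted p 4.07e-10), with the 18 h call lost without replicate 1 of 0 h (0.15, adjusted p 0.0618) or without either 18 h replicate. In O4AID it was 2.67-fold higher before treatment, at 394 CPM untreated, 385 after 1.5 h, 398 after 6 h, 409 after 10 h and 352 after 24 h, with a change of -0.16 at 24 h.

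*Airn* (ENSMUSG00000078247, chr17:12741311-12860122, plus strand) was low, at 0.859 and 0.858 CPM at 0 h, 0.857 and 0.724 at 12 h, 1.32 and 0.916 at 18 h, 1.13 and 1.05 at 24 h, and 1.49 and 1.73 at 36 h. The 36 h replicates were above both at 0 h, with 0.91 ± 0.27 (SE) (adjusted p 0.00875), a call lost with DESeq2 (0.90, adjusted p 0.0772) and without replicate 2 of 36 h (0.79, adjusted p 0.0730). The O4AID libraries gave 0.228 CPM untreated, 0.736 after 1.5 h, 1.02 after 6 h, 0.871 after 10 h and 2.42 after 24 h, a change of 1.48 (95% counting interval 1.19 to 1.72) at 24 h, 0.98 against the 1.5 h library and 0.51 with a pseudocount of 5. *Airn* and *Igf2r* were both called higher in CreER at 36 h.

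Of the imprinted genes on chromosome 2, *Sfmbt2* changed most. *Sfmbt2* (ENSMUSG00000061186, chr2:10370510-10595253, plus strand), a Polycomb-like gene imprinted in the placenta, was at 209.6 and 206 CPM at 0 h, 231 and 220.4 at 12 h, 261 and 245 at 18 h, 287 and 279 at 24 h, and 419 and 393 at 36 h. Every treated replicate exceeded both untreated ones. It rose by 0.29 ± 0.04 (SE) at 18 h (adjusted p 4.82e-05), 0.46 ± 0.04 (SE) at 24 h (adjusted p 8.72e-09) and 0.98 ± 0.04 (SE) at 36 h (adjusted p 5.08e-16). O4AID ESCs had 18.5 CPM untreated, 17.6 after 1.5 h, 18.9 after 6 h, 26.2 after 10 h and 61.9 after 24 h, 11.2-fold below CreER at 0 h and up by 1.69 (95% counting interval 1.58 to 1.80) at 24 h.

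*Nnat* (ENSMUSG00000067786, chr2:157560078-157562522, plus strand), a small membrane protein of neurons, was at 18.7 and 18.6 CPM at 0 h, 19 and 19.6 at 12 h, 19.3 and 18.1 at 18 h, 19.2 and 19 at 24 h, and 18.8 and 20.7 at 36 h. It did not pass at any time (0.09 ± 0.08 (SE) at 36 h, adjusted p 0.370). O4AID ESCs had 9.39-fold less, at 1.98 CPM untreated, 2.02 after 1.5 h, 1.46 after 6 h, 2.02 after 10 h and 2.64 after 24 h. *Nespas* (ENSMUSG00000086537, chr2:174281237-174295436, minus strand), an antisense RNA of the *Gnas* locus that shares 38.5% of its exon bases with other genes, was at 16.1 and 17.7 CPM at 0 h, 15.5 and 14.0 at 12 h, 15.9 and 17.4 at 18 h, 16.3 and 16.6 at 24 h, and 13.8 and 13.6 at 36 h.

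The change of *Nespas* at 36 h was -0.30 ± 0.08 (SE) (adjusted p 0.00694), lost without replicate 2 of 0 h (-0.22, adjusted p 0.102). O4AID held 7.93 CPM untreated, 7.20 after 1.5 h, 7.55 after 6 h, 9.61 after 10 h and 7.03 after 24 h, a difference before treatment of -1.0 that became -0.94 without replicate 2 of CreER 0 h. *Gnas*, encoding a G protein subunit, was counted at 3.01 to 3.66 CPM in CreER and 2.45 to 3.15 in O4AID and did not pass. With 22.0% of its exon bases under antisense models and many overlapping transcripts, its level is uncertain.

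*Mcts2*, a retrogene close in sequence to *Mcts1*, lay between 23.7 and 28.4 CPM in CreER and between 19.1 and 25.1 in O4AID. Its fall at 36 h (-0.17 ± 0.07 (SE), adjusted p 0.0445) was lost with DESeq2, without either 0 h replicate, without replicate 1 of 36 h (-0.10, adjusted p 0.377) and in 2 other settings. Reads of the 2 copies may have been divided between them.

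*Grb10* (ENSMUSG00000020176, chr11:11930508-12038683, minus strand), a growth-restraining adaptor of the insulin receptor read from the maternal copy in most tissues, was called lower in CreER and was past 2-fold lower, without a test, in O4AID at 24 h. In CreER it was at 32.1 and 32.8 CPM at 0 h, 32.6 and 33.7 at 12 h, 28.2 and 30.7 at 18 h, 25.0 and 27.5 at 24 h, and 21.0 and 22.2 at 36 h. The log2 fold change was -0.30 ± 0.07 (SE) at 24 h (adjusted p 0.00146) and -0.58 ± 0.07 (SE) at 36 h (adjusted p 1.83e-07), the 24 h call being lost without replicate 1 of 24 h (-0.24, adjusted p 0.0581). The O4AID course read 129 CPM untreated, 112 after 1.5 h, 114 after 6 h, 97.2 after 10 h and 26.0 after 24 h. It started 3.98-fold above CreER and ended 4.96-fold below its own start (log2 change -2.27 (95% counting interval -2.36 to -2.18)), within the range of CreER at 24 h.

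*Plagl1* (ENSMUSG00000019817, chr10:13060504-13131694, plus strand), a paternally expressed zinc finger regulator of other imprinted genes, showed the largest difference upward between the lines. It was at 17.4 and 13.9 CPM at 0 h, 18.4 and 18.9 at 12 h, 22.2 and 19.7 at 18 h, 23.8 and 22.2 at 24 h, and 22.1 and 22.2 at 36 h in CreER and at 221 CPM untreated, 199 after 1.5 h, 167 after 6 h, 177 after 10 h and 204 after 24 h in O4AID, 14.1-fold higher before treatment. In CreER it rose by 0.43 ± 0.09 (SE) at 18 h (adjusted p 0.00221), 0.58 ± 0.09 (SE) at 24 h (adjusted p 1.93e-05) and 0.52 ± 0.09 (SE) at 36 h (adjusted p 4.37e-05). The 18 h call was lost without replicate 2 of 0 h (0.27, adjusted p 0.115) or without replicate 1 of 18 h (0.34, adjusted p 0.0850).

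*Zdbf2* (ENSMUSG00000027520, chr1:63273265-63314576, plus strand), a paternally expressed gene on chromosome 1, was at 119.8 and 127 CPM at 0 h, 114 and 123 at 12 h, 110.3 and 102 at 18 h, 97.3 and 102 at 24 h, and 101 and 77.3 at 36 h. It fell by 0.45 ± 0.11 (SE) at 36 h (adjusted p 0.0194), and the call was lost without replicate 1 of 0 h (-0.49, adjusted p 0.0724) or replicate 2 of 0 h (-0.41, adjusted p 0.133). Its level was 2.68-fold lower in O4AID, at 46.0 CPM untreated, 41.9 after 1.5 h, 37.8 after 6 h, 44.9 after 10 h and 35.4 after 24 h. *Trappc9* (ENSMUSG00000047921, chr15:72589621-73061204, minus strand), a trafficking subunit on chromosome 15, was at 19.5 and 18.4 CPM at 0 h, 20.8 and 21.1 at 12 h, 20.8 and 21.5 at 18 h, 22.3 and 22.4 at 24 h, and 21.8 and 24.3 at 36 h.

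The rises of *Trappc9* were small, 0.25 ± 0.07 (SE) at 24 h (adjusted p 0.0148) and 0.29 ± 0.07 (SE) at 36 h (adjusted p 0.00273). The first was lost with DESeq2, without replicate 2 of 0 h (0.20, adjusted p 0.127) or without either 24 h replicate, and the second without replicate 2 of 36 h (0.20, adjusted p 0.0800). It was 2.57-fold higher in untreated O4AID, at 48.7 CPM untreated, 51.3 after 1.5 h, 44.3 after 6 h, 40.9 after 10 h and 34.6 after 24 h. *Impact*, a regulator of translation, lay between 244 and 287 CPM in CreER and between 184 and 279 in O4AID, and *Jade1*, a chromatin factor, between 488 and 544 and between 268 and 404 CPM. Neither passed at any time in CreER or changed 2-fold in O4AID.

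Set side by side at 24 h on the scale of CPM + 1, the lines gave unlike sizes for the 5 genes called higher in CreER and past 2-fold in O4AID. *Peg10* was at 0.30 in CreER and 4.81 in O4AID, *H19* at 1.0 and 4.64, *Igf2* at 0.69 and 3.27, *Sgce* at 0.44 and 2.20, and *Sfmbt2* at 0.45 and 1.69. The starting levels were unlike too, with untreated O4AID below CreER by 33.6-fold, 74.8-fold, 79.4-fold, 1.52-fold and 11.2-fold in that order. At 24 h *Peg10* was at 2274 CPM (CreER mean) and 1567 (O4AID), *H19* at 361 and 84.0, and *Igf2* at 55.8 and 12.8. *Sfmbt2* was at 283 and 61.9, and only *Sgce* was higher in O4AID, at 16.9 and 40.6. OCT4 is lost at different rates by the 2 routes, so the same hour is not the same duration without OCT4. These differences were not tested, because O4AID has 1 library at each time.

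A second list held 34 further imprinted genes. Of these 26 were tested in CreER, and 3 rose and 7 fell at 36 h, where the shares over all genes were 19.4% and 17.2%. Those past 2-fold were *Cobl*, an actin nucleator beside *Grb10*, at -1.65 ± 0.08 (SE, adjusted p 6.01e-15), and *Calcr*, the calcitonin receptor near *Peg10*, at -1.09 ± 0.21 (adjusted p 1.58e-04). In O4AID at 24 h 1 of 28 was 2-fold higher, the amino acid transporter gene *Slc38a4* at 1.43, and 3 were lower (all genes 3.51% and 2.73%), *Cobl* at -1.82, *Ddc* at -1.19 and *Dio3* at -1.11. At 6 h *Cobl* was already at -1.73, when its neighbour *Grb10* was at -0.17.

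Among 18 genes that set, keep or remove DNA methylation or repressive chromatin at imprints, 15 fell and 2 rose in CreER at 36 h, beside 17.2% and 19.4% of all genes. At 12 h edgeR called 0 of the 18, when 0.137% of all genes were called lower and 0.258% higher. The largest falls at 36 h were those of *Tet2*, a methylcytosine oxidase (-0.97 ± 0.04, adjusted p 8.82e-16), the methyltransferase gene *Dnmt3a* (-0.80 ± 0.05, adjusted p 1.98e-13) and *Zfp57* (-0.66 ± 0.05, adjusted p 2.14e-11), named after their values were seen. In O4AID at 24 h 4 of the 18 were 2-fold lower, beside 2.73% of all genes, *Tet2* (-1.91), *Zfp57* (-1.57), *Tet1* (-1.30) and *Dppa3* (-1.11). *Dnmt3a* and *Dnmt3b*, at -0.80 and -0.38 in CreER at 36 h, were at 0.37 and 0.24 in O4AID at 24 h. Between the untreated lines 3 of the 18 were at least 2-fold lower in O4AID and 1 higher, beside 14.0% and 15.4% of all genes. *Dnmt3l*, a cofactor of de novo methylation, was at 595 and 591 CPM in CreER and 2.23 in O4AID. *Dnmt3b* and *Dnmt3a* were also lower in O4AID (-2.52 and -1.84) and *Tet2* was higher (2.16). The part of these genes in the imprinted levels was not tested.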

How the data were processed

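Counts per gene were deposited for 15 libraries. Per the labels and the methods, rRNA-depleted directional paired-end libraries were trimmed (Trim Galore 0.1.4), aligned to GRCm38 (TopHat2 2.1.0) and counted by the authors with featureCounts 1.5.1. The settings for strand, multimapping and overlap are not given in the sources used here, and a deposited matrix of TMM values was not used. ERCC entries (92) held 0 reads.

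The 40 genes, the lists and the tests were chosen with earlier results of these data known. The CreER times were compared with 0 h in edgeR (version 4.0.16; quasi-likelihood test, robust, TMM, filterByExpr, 10 libraries in 1 fit, Benjamini-Hochberg adjustment over all genes), in place of the simulated replicates of the original analysis. DESeq2 1.42.0 was an alternative. O4AID and the untreated lines, without replicates in O4AID, were compared by log2(CPM + 1), with at least 10 counts in 1 of the libraries compared and 2-fold as the limit. Counting intervals (95%) are exact Poisson limits combined on the log scale, or for ratios exact binomial limits; they cover counting error only. The edgeR step was checked on simulated counts.

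A gene was described in every library if it passed 2-fold in any comparison (28 genes). The others are given by their range. Replicates differed by more than counting error (chi-square per degree of freedom 3.02 to 7.00).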

Additional observations from a re-analysis of the deposited data

Results flagged for a closer look

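For 12 imprinted genes both CreER replicates at 24 h lay on one side of both 0 h replicates, and the O4AID library at 24 h lay on the other side of its 0 h library by more than counting error. That is 12 of the 36 imprinted genes compared (33.3%), beside 11.4% of all 17011 genes compared. Genes with many counts pass this rule at smaller changes, and the shares were not matched for count. The values below are log2 changes of CPM + 1, CreER first, then O4AID, then O4AID minus CreER. O4AID has 1 library at each time, so none of these differences was tested, and strain, route of OCT4 loss and agent cannot be told apart in them.

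Higher in O4AID were *Phlda2*, a placental growth restrainer, at -0.30, 1.67 and 1.97, *Cdkn1c* at -0.15, 0.73 and 0.88, and *Snrpn* at -0.59, 0.16 and 0.75. *Ndn* was at -0.06, 0.45 and 0.51, *Rian* at -0.16, 0.35 and 0.51 and *Mirg* at -0.10, 0.20 and 0.30. Of these 6 only *Phlda2*, *Snrpn* and *Rian* were called lower in CreER at 24 h, and only *Phlda2* was past 2-fold in O4AID.

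Lower in O4AID was *Peg12* at 0.58, -0.48 and -1.06, followed by *Mest* at 0.25, -0.67 and -0.92 and *Trappc9* at 0.23, -0.48 and -0.71. *Plagl1* was at 0.53, -0.11 and -0.65, *Igf2r* at 0.33, -0.16 and -0.49 and *Cd81* at 0.11, -0.05 and -0.16. All of these but *Cd81* were called higher in CreER at 24 h, and none was past 2-fold in O4AID.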

How the results depend on the processing

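No direction reversed in any alternative for any imprinted gene called in CreER or past 2-fold in O4AID or between the lines. At 12 h the count of 0 genes called became 1 under total counts, 3 with no filter on low counts and 1 with DESeq2, and 0 to 3 when 1 replicate was left out (3 without replicate 1 of 0 h, among them *Snrpn* and *Mest*). At 18 h the count of 12 became 5 to 11 when 1 replicate was left out (5 without replicate 1 and 7 without replicate 2 of 18 h, 8 without replicate 2 of 0 h). The counts of 14 at 24 h and 27 at 36 h stayed within 11 to 16 and 23 to 27. In O4AID the count past 2-fold at 1.5 h became 1 with a pseudocount of 0.1, that at 6 h went from 2 to 1 with a pseudocount of 5 or with the 1.5 h library as the reference, and that at 10 h from 3 to 5 with a pseudocount of 0.1. At 24 h it ranged from 6 to 10, and the 24 genes past 2-fold between the lines ranged from 17 to 27. The cause of these shifts was not tested.

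The replicate numbers did not pair the CreER libraries (correlation of replicate differences between times -0.02 to 0.05, with 0 of 10 pairs over 0.1), and a fit with the replicate block called 0, 12, 14 and 27 genes at 12, 18, 24 and 36 h. Total-count scaling moved the median of all genes by 0.12 in O4AID at 24 h and by -0.18 between the lines. In CreER it moved the share of higher calls among all genes from 65.3% to 36.9% at 12 h, from 51.0% to 61.3% at 24 h and from 53.1% to 36.0% at 36 h, and in O4AID from 41.8% to 52.5% at 6 h and from 56.3% to 66.6% at 24 h, while the imprinted genes at 36 h went from 16 higher and 11 lower to 15 and 12. Few counts limit what can be said of *Airn*, *Ascl2*, *Dlk1*, *Magel2*, *Slc22a18* and *Zim1*, and of *Igf2* in untreated O4AID, where it had 19 counts.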
